A study of Rattus norvegicus with 15 samples.

Results

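The genes described here are Mest, 5 secreted Wnt antagonists, the ligands Wnt5a and Wnt10b and the transcription factor Tcf7l2, in epididymal fat, the visceral depot beside the testis, of diet-induced obese and lean rats. The list held 9 genes, namely Mest, Frzb, Sfrp1, Sfrp2, Sfrp4, Sfrp5, Wnt5a, Wnt10b and Tcf7l2. A member was any probe set, the group of probes on the array that reads 1 transcript, whose platform annotation named exactly 1 gene and that gene was on the list. By this rule 8 of the 9 genes had a probe set, 17 probe sets in all, out of 14217 genes and 31042 probe sets. No probe set named Wnt10b alone, so that gene was not analysed here. Of the 17 probe sets, 14 passed the filter on low signals, and they covered 7 genes; Wnt5a, a probe set of Sfrp2 and a probe set of Tcf7l2 did not pass. The list was drawn up because Mest and Frzb were known to be lower in obese rats of this series, so the obese against lean values of all members are given below as a description. Where the text says that a member passed the threshold of the fit over all probe sets, this describes how it was chosen and is no evidence for the difference.

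The obese rats, 7 in number, had eaten a high fat, high sucrose diet from weaning on; the 8 lean rats had eaten regular chow. All were male Long-Evans rats, housed singly with free access to food, and were killed while fed, aged 26 weeks; the labels name no transgene or drug. Each rat gave 1 Affymetrix RAE230_2 array. Diet and obesity went together in this design and cannot be told apart. Throughout, rats carry the letter and number of their labels, C for obese and A for lean.

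The arrays of obese rat C1 and lean rat A7 were nearly the same, despite labels that put them in opposite groups. Their log2 values correlated at 0.986 over all probe sets past the filter, against 0.960 for the next closest pair of arrays and 0.898 for the least alike. Every array had the same trimmed mean, from 1500.34 to 1500.42 signal units. Results are therefore given without this pair, on 13 arrays (6 obese and 7 lean rats), and with all 15. All 8 adipocyte markers examined, Adipoq and Plin1 among them, passed the filter, so the labelled tissue carried its defining transcripts. With 15 arrays 0 of 18625 probe sets passed an adjusted p of 0.05 in limma, while 2898 had an unadjusted p under 0.05; without the pair 189 passed.

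Mest (mesoderm specific transcript) is an imprinted gene, read from the paternal copy, that encodes a membrane protein of the endoplasmic reticulum with a hydrolase fold. In mice its transcript in fat is known to be high while the depot expands and to vary widely between animals of the same strain. Wnt proteins are secreted signals that, through Frizzled receptors and beta-catenin, hold fat precursors back from becoming adipocytes. The secreted frizzled-related proteins Frzb (also called Sfrp3), Sfrp1, Sfrp2, Sfrp4 and Sfrp5 bind Wnt proteins outside the cell through a domain like that of the receptors. Tcf7l2 is a DNA-binding partner of beta-catenin, and Wnt5a is a ligand best known for signals that do not use beta-catenin.

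The stretches of DNA just before the starts of Mest and Frzb are shown because these were the members that stood lower in obese fat, and because they differ in base composition. RefSeq's promoter table for rat build GRCr8 held 6 of the 9 listed genes (Mest, Frzb, Sfrp2, Sfrp5, Wnt5a and Tcf7l2). Capitals mark CG dinucleotides and any match to CTTTG, the core letters bound by TCF factors, or to the same letters on the other strand (CAAAG); these searches cannot overlap each other. The Mest stretch lies at chr4:60321564-60321813 on the plus strand and the Frzb stretch at chr3:85772097-85772346 on the minus strand, each 250 bases long and written 5′ to 3′.
Mest: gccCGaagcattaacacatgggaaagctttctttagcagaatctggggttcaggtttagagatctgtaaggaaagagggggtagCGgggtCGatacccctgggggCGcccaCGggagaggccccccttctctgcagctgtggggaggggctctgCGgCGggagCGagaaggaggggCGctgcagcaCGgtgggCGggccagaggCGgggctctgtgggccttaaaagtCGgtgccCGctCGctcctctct
Frzb: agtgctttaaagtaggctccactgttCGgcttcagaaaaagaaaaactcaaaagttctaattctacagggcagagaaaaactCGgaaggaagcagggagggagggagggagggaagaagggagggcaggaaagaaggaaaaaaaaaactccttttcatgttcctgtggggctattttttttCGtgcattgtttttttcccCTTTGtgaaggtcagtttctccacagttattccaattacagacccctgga
The Mest stretch held 15 CG dinucleotides at a GC content of 64.0%, and the Frzb stretch held 3 at 43.6%. Over 33469 promoters of this length the median was 5 CG dinucleotides and 51.2% GC. The Frzb stretch held 1 CTTTG, 50 bases before the start, and the Mest stretch held no match to either spelling. Of the 6 members with a promoter 3 held a match (Frzb, Sfrp5 and Tcf7l2), and 48.24% of all promoters did. These matches describe letters in a window and say nothing of binding.

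Mest signal was lower in obese fat in every rat outside the near-identical pair. MAS5 signals of Mest (Entrez gene 58827, probe set 1371731_at) in the obese rats without C1 were 11348.4 in C2, 12346.3 in C3, 17997.0 in C5, 8796.2 in C6, 8893.7 in C7 and 11428.2 in C8. In the lean rats without A7 they were 19458.8 in A1, 29177.8 in A2, 25722.4 in A3, 27979.0 in A4, 26902.7 in A5, 20992.7 in A6 and 23387.1 in A8. The highest obese rat, C5, lay just under the lowest lean rat, A1, so the groups did not overlap. The near-identical arrays read 21707.8 in obese C1 and 21444.9 in lean A7, both inside the lean range. Mest averaged 11802 ± 3362 in obese and 24803 ± 3642 in lean rats without the pair (SD, n = 6 and 7), a ratio of 0.476 and a log2 difference, obese minus lean, of -1.10 ± 0.16 (SE). With all 15 arrays the averages were 13217 ± 4841 in obese and 24383 ± 3574 in lean rats (SD, n = 7 and 8), a log2 difference of -0.94 ± 0.18 (SE). Log2 differences are on the scale log2(signal + 79.9), which understates the change of dim probe sets.

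Frzb, the antagonist first found in cartilage, showed the same order of groups on both of its probe sets. On probe set 1375961_at (Entrez gene 295691) the obese rats without C1 read 1861.6 in C2, 1954.7 in C3, 2520.4 in C5, 1160.7 in C6, 1978.7 in C7 and 1942.6 in C8. The lean rats without A7 read 4245.3 in A1, 5129.4 in A2, 3668.4 in A3, 4665.9 in A4, 4440.4 in A5, 4527.7 in A6 and 3427.6 in A8. All 6 obese rats lay under all 7 lean rats, with C6 lowest and C5 highest among the obese. In the near-identical pair the signal was 5515.8 in obese C1, above every other rat, and 5303.9 in lean A7, the next highest. The averages without the pair were 1903 ± 434 in obese and 4301 ± 585 in lean rats (SD, n = 6 and 7), a ratio of 0.443 and a log2 difference of -1.16 ± 0.15 (SE). With 15 arrays the log2 difference was -0.98 ± 0.22 (SE).

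The other Frzb probe set, 1373615_at, ran from 1204.5 to 2075.5 with a median of 1864.7 in the 6 obese rats. In the 7 lean rats it ran from 2707.2 to 3956.5 with a median of 3270.0. Again the groups did not overlap without the pair, and obese C1 and lean A7 read 4267.7 and 4276.8, above all other rats. The log2 difference was -0.88 ± 0.13 without the pair and -0.75 ± 0.19 with all 15 arrays (SE). After each group's mean was taken away, the Frzb probe sets went together from rat to rat, with r = 0.80 over 13 arrays and 0.94 over 15; they read the same RNA of the same gene and are not independent.

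**Figure D1:**
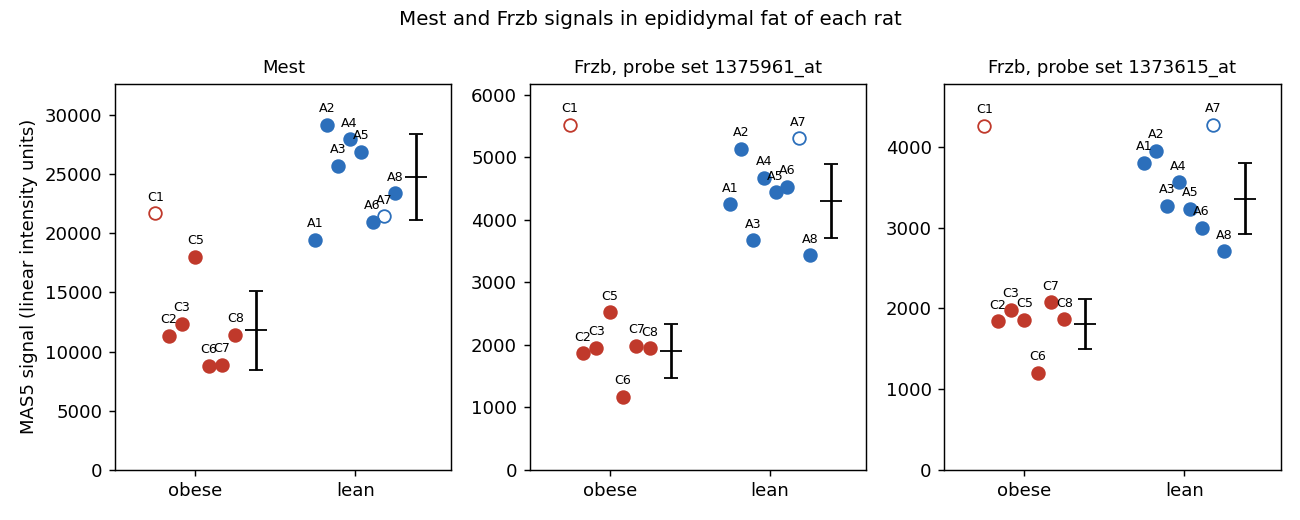
MAS5 signals (linear units) of Mest and of the Frzb probe sets, 1 point per rat, obese in red at the left and lean in blue at the right of each panel. Open points are the near-identical arrays of obese C1 and lean A7; the black bars give the mean and SD of the filled points. In every panel the filled obese points lie below all filled lean points, while open C1 lies among or above the lean points.

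Mest and Frzb supplied all 3 of the 14 member probe sets past the filter that passed the adjusted p of 0.05 as lower in obese fat without the pair. Of all 18625 probe sets, 0.29% did so. These 3 were the only member probe sets past the filter whose groups did not overlap without the pair, beside 1.45% of all probe sets in either direction. With 15 arrays 0 of the 14 passed, where the share of all probe sets was 0, and 0 of the 14 had groups that did not overlap, beside 0.193% of all probe sets. The members were chosen on this contrast, so nothing is read from these counts. By size of the log2 difference, the 3 probe sets stood 13th (Frzb 1375961_at), 17th (Mest) and 48th (Frzb 1373615_at) among the most negative of all probe sets without the pair.

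Over the 14 member probe sets past the filter, 9 had a negative and 5 a positive log2 difference, with a median of -0.06, beside -0.04 over all probe sets. The split depended on the scaling: under median centring and under quantile normalization 6 were negative and 8 positive, and with the Gapdh covariate 11 were negative and 3 positive. The Frizzled-related antagonists other than Frzb did not share its pattern on any probe set. Sfrp1, which in mice favours the formation of fat cells, had 3 probe sets with log2 differences of 0.18 ± 0.16, 0.35 ± 0.11 and 0.05 ± 0.16 (SE, 13 arrays). The sign of the last, 1383266_at, turned negative with the Gapdh covariate. On the second of these, 1382878_at, the 6 obese rats ran from 973.0 to 1282.0 with a median of 1043.95, and the 7 lean rats ran from 660.2 to 997.1 with a median of 814.1. The overlap came from 1 lean rat, A2 at 997.1, which stood above obese C8 and C7; the other 6 lean rats lay below all 6 obese rats. On the brightest Sfrp1 probe set, 1371861_at, the obese rats ran from 3722.0 to 7931.1 and the lean rats from 3737.6 to 5811.8, so that the lowest rat of each group was nearly the same and the spread was wider among the obese.

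Sfrp2, an antagonist made by stromal cells, had 1 probe set past the filter, 1390119_at, with a log2 difference of 0.19 ± 0.20 (SE, 13 arrays). It ran from 1637.8 in C7 to 4601.8 in C8 among the 6 obese rats, and from 1750.9 to 2963.5 among the 7 lean rats. Obese C3, C5 and C8 stood above every lean rat, C7 stood below every lean rat, and C2 and C6 lay among them. The dimmer Sfrp2 probe set, 1396614_at, fell below the filter and had no value between 281.9 and 682.8 on any array. The rats under that gap were obese C1 (166.4) and C6 (281.9) and lean A1, A2, A7 and A8, the lowest of them A8 at 89.7. The rats above it were 5 obese rats (C2, C3, C5, C7 and C8), up to 1490.9, and 4 lean rats (A3, A4, A5 and A6), up to 1287.7. This spacing did not follow the groups, and the brighter Sfrp2 probe set did not show it: C6, under the gap on 1396614_at, read 2824.1 on 1390119_at, close to the obese median of 2932.25.

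**Figure D2:**
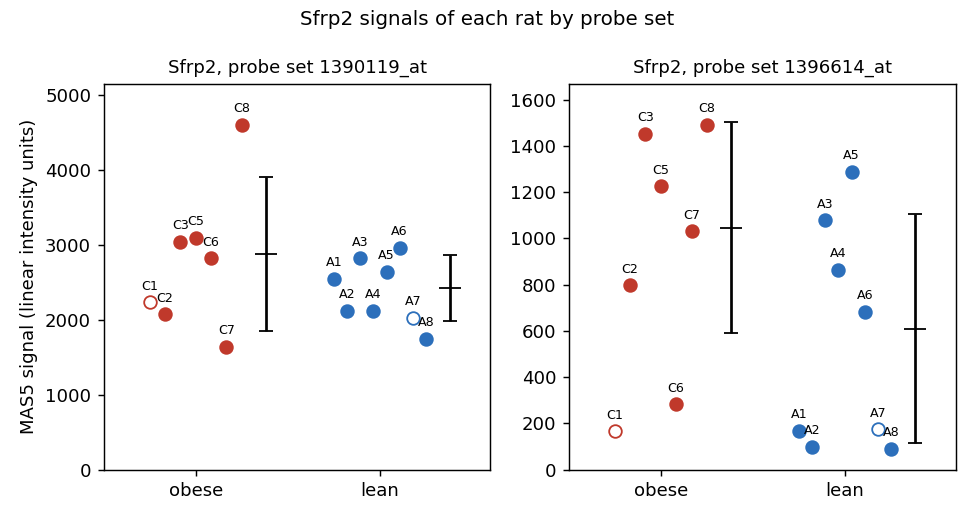
MAS5 signals (linear units) of the Sfrp2 probe sets, 1 point per rat, obese at the left and lean at the right; open points are obese C1 and lean A7, and the bars give the mean and SD of the filled points. On probe set 1396614_at (right panel) the rats of both groups fall into low values up to 281.9 and high values from 682.8, a spacing absent from probe set 1390119_at (left panel).

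Sfrp4, an antagonist that human fat also releases into blood, gave probe sets that ran against each other. The log2 difference was 0.04 ± 0.25 on 1368394_at and -0.30 ± 0.34 on 1388021_at (SE, 13 arrays). The sign on 1368394_at turned in 7 of 24 alternatives, with values from -0.14 to 0.21, among them the Gapdh covariate and the fit without obese C6. On 1368394_at the obese rats ran from 1860.1 to 3869.4 (C6) and the lean rats from 1455.0 to 4638.7 (A3), and the groups overlapped across the range. On 1388021_at the lowest of all rats was A3, at 175.1, the rat that was highest on the other probe set. After each group's mean was taken away, the Sfrp4 probe sets correlated at r = -0.78 over 13 arrays and -0.76 over 15, whereas those of Frzb correlated positively. Sfrp4 values are therefore given per probe set, and no level of the gene is stated.

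Sfrp5, the antagonist that in mice is induced in adipocytes as fat expands, had a log2 difference of -0.08 ± 0.29 (SE, 13 arrays) on its only probe set, 1393069_at. Its signal ran from 334.1 to 737.1 with a median of 609.1 in the 6 obese rats. In the 7 lean rats it ran from 148.7 in A6 to 988.0 with a median of 668.6, so the lean range enclosed the obese range. The sign of this difference turned positive under median centring and under quantile normalization.

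The ligand Wnt5a (1369263_at) lay below the filter and was not in the fit. Its signal ran from 268.4 to 621.6 with a median of 448.1 in the 6 obese rats and from 350.8 to 762.5 with a median of 633.1 in the 7 lean rats. The overlap came from lean A6, at 350.8, and obese C2, at 621.6; the other 5 obese rats lay below the other 6 lean rats, which started at 579.5. Signals this dim are noisy in MAS5.

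Tcf7l2, the transcription factor at the end of the pathway, had 5 probe sets, of which 4 passed the filter. Their log2 differences were -0.14 ± 0.11 (1377156_at), -0.25 ± 0.16 (1379815_at), -0.02 ± 0.29 (1392592_at) and -0.04 ± 0.27 (1378048_at), with SE over 13 arrays. The sign of the last 2 turned positive under median centring and under quantile normalization. On the brightest, 1377156_at, the obese rats ran from 3697.3 to 5213.8 with a median of 4874.75, and the lean rats from 4548.6 to 6155.9 with a median of 5071.4, and most rats of both groups shared a range. The near-identical arrays were the highest of all on it, with 7101.8 in obese C1 and 7002.2 in lean A7. The probe set below the filter, 1394497_at, ran from 373.6 to 555.5 in the obese rats and from 49.2 to 828.6 in the lean rats.

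**Figure D3:**
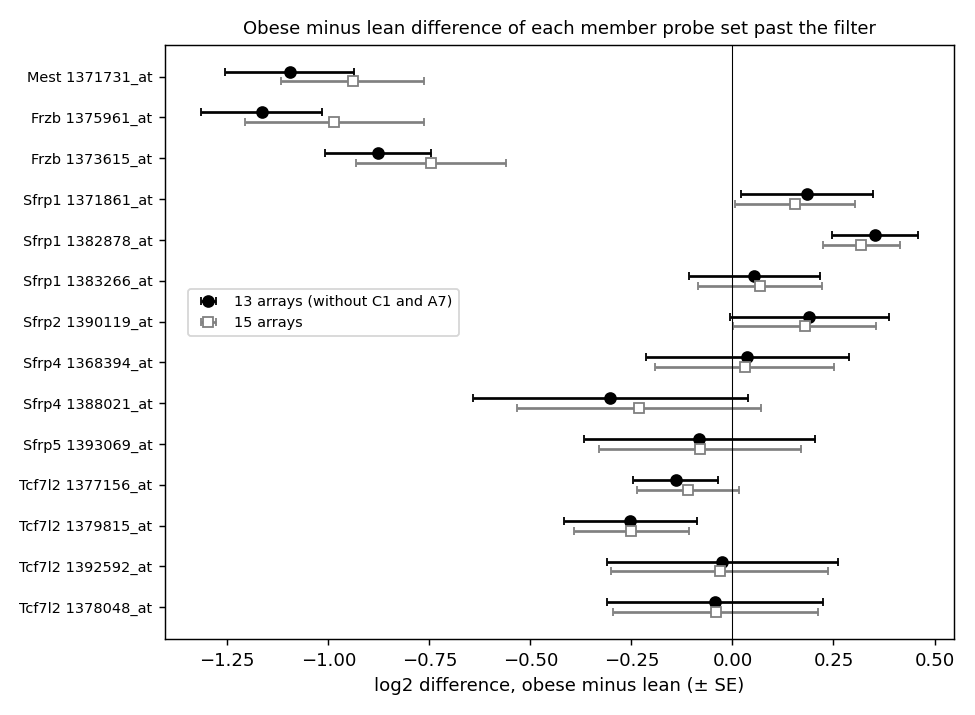
Log2 difference, obese minus lean, of each member probe set past the filter (points) with its SE (bars), from 13 arrays and from all 15. The Mest and Frzb probe sets lie between -0.75 and -1.16 in both sets of arrays, and the other members between -0.30 and 0.35.

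Whether members moved together from rat to rat was examined within each group. Without the pair the obese against lean difference does not enter there. With 15 arrays it can enter, since obese C1 read at or above the lean range for Mest and Frzb. The 7 members past the filter, each by its brightest probe set, gave 21 pairs and 42 tests over both groups. By exact two-sided permutation with Benjamini-Hochberg adjustment over the 42 tests, 0 pairs passed 0.05 by Pearson's r or by Spearman's rho, with 13 arrays or with 15. By Pearson's r, 2 tests had an unadjusted p under 0.05 in each set of arrays, and the smallest adjusted p was 0.425 with 13 arrays and 0.192 with 15. With 6 rats the smallest exact p that all orders can give is 0.00139, so a lone pair of members could not pass among 42 tests in the 6 obese rats.

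For Mest and Frzb the correlation was highest among the obese rats with C1 included. Over the 7 obese rats Pearson's r was 0.88 (exact permutation p = 0.00456, adjusted p = 0.192) and rho was 0.79 (exact permutation p = 0.048, adjusted p = 0.806). Without the 2 rats farthest from the median in Mest, r was 0.58. For every pair of members the 2 farthest rats are those farthest in the gene named first, and r without them rests on few rats. Over the 6 obese rats without C1, r was 0.75 (exact permutation p = 0.0986, adjusted p = 0.748) and rho was 0.66 (exact permutation p = 0.175, adjusted p = 0.804). Without the 2 rats farthest from the median in Mest, C5 and C6, r was -0.41. The few rats left had Frzb signals from only 1861.6 to 1978.7. Their r therefore cannot decide whether the relation among the 6 rested on those 2 rats. In the lean rats without A7, r was 0.33 (n = 7, exact permutation p = 0.459, adjusted p = 0.821), rho was 0.61 (exact permutation p = 0.167, adjusted p = 0.804), and r was 0.96 without the 2 farthest rats. With A7, r was 0.11 (n = 8, exact permutation p = 0.792, adjusted p = 0.919) and rho 0.26 (exact permutation p = 0.536, adjusted p = 0.987), and r was -0.20 without the 2 farthest rats. The difference between obese and lean rats in r was not tested.

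By Pearson's r, the other pairs with an unadjusted p under 0.05 were Sfrp1 with Tcf7l2 and Frzb with Sfrp5. Sfrp1 and Tcf7l2 ran against each other in the 7 lean rats without A7, with r = -0.89 (exact permutation p = 0.0101, adjusted p = 0.425) and rho = -0.68 (exact permutation p = 0.11, adjusted p = 0.804), and r was -0.22 without the 2 farthest rats. In all 8 lean rats r was -0.74 (exact permutation p = 0.0325, adjusted p = 0.649) and rho -0.71 (exact permutation p = 0.0576, adjusted p = 0.806), and r was -0.82 without the 2 farthest rats. Frzb and Sfrp5 went together in the 6 obese rats, with r = 0.95 (exact permutation p = 0.025, adjusted p = 0.525) and rho = 0.60 (exact permutation p = 0.242, adjusted p = 0.804); r was -0.38 without the 2 farthest rats and 0.48 over all 7 obese rats (exact permutation p = 0.252, adjusted p = 0.649). By rank, Frzb and Sfrp1 ran against each other in the obese rats, with rho = -0.94 over 6 rats (exact permutation p = 0.0167, adjusted p = 0.7) and -0.93 over 7 (exact permutation p = 0.00675, adjusted p = 0.283); their r was -0.70 over 6 (exact permutation p = 0.118) and -0.62 over 7 (exact permutation p = 0.129). Also by rank, Frzb ran against Sfrp4 probe set 1368394_at in the 7 lean rats without A7. There rho was -0.79 (exact permutation p = 0.048, adjusted p = 0.804) and r was -0.71 (exact permutation p = 0.0808, adjusted p = 0.748). The other Sfrp4 probe set, 1388021_at, ran against the first and was not set against Frzb, so nothing is said of the gene. None of these pairs passed the adjustment.

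**Figure D4:**
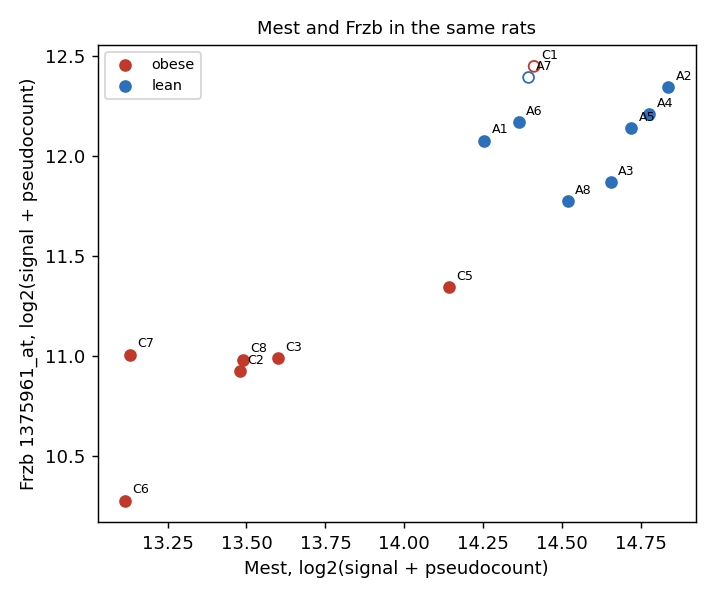
Mest (x axis) against Frzb probe set 1375961_at (y axis), both as log2(signal + 79.9), 1 point per rat, obese in red and lean in blue, with open points for obese C1 and lean A7. The 6 filled obese rats lie at the lower left, C5 nearest to the lean rats, and the open point of obese C1 lies at the upper right beside that of lean A7.

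To place this among all genes, each rat's value was taken from its group's mean and the 13 rats were pooled. Mest and Frzb then correlated at r = 0.63 over 13 arrays and at 0.76 over 15, where C1 counts among the obese rats. Over 10513 genes the r with Mest ran from -0.45 at the 5th to 0.51 at the 95th percentile, and Frzb stood at the 98.6th. Mest and Sfrp5 correlated at 0.45, at the 91.9th percentile. The points share 1 array scaling and 1 RNA sample per rat, and the values are given without a p.

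The genes most like Mest from rat to rat, by this group-centred r over 13 arrays, were Farp2 (0.88, and 0.51 over 15 arrays), Hus1 (0.87 and 0.88), Yipf2 (0.83 and 0.65), Sirt3 (0.82 and 0.65) and Isg20 (0.80 and 0.78). Hus1 takes part in the DNA damage checkpoint and Sirt3 is a mitochondrial deacetylase. The genes most like Frzb were Adgrf5 (0.88 and 0.69), Ppfibp2 (0.88 and 0.40), Gjc1 (0.86 and 0.43), Sprn (0.86 and 0.64) and Cytl1 (0.86 and 0.34). Adgrf5 is an adhesion receptor and Gjc1 a gap junction protein. For Ppfibp2, Gjc1 and Cytl1 the likeness to Frzb was under 0.5 once C1 and A7 were counted. All these genes were picked as the highest of 10513 over only 13 arrays. At the other end the lowest r was as far from 0, at -0.89 with Mest and -0.88 with Frzb. The names are therefore a description, and whether these genes vary with Mest or Frzb was not tested.

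Some markers of other cell types in the depot differed between the groups beside Mest and Frzb. Without the pair 0 of 7 endothelial, 0 of 4 smooth muscle and 0 of 8 adipocyte markers passed, nor did the 1 epididymal epithelium marker. All 15 macrophage markers had a positive log2 difference without the pair, and 5 of them (Gpnmb, Lgals3, Laptm5, Itgax and Cd68) passed as higher in obese fat in limma, where 1.1% of all genes, by their brightest probe set, passed in either direction. The mean centred log2 level of the list ran from 0.00183 to 1.09 in obese rats and from -0.698 to 0.0194 in lean rats, and was -0.293 in obese C1 and -0.241 in lean A7. Of 11 mesothelial markers 10 had a negative difference, and 1, Calb2, passed as lower (-0.83, limma adjusted p = 0.0467); the list's level ran from -0.448 to 0.166 in obese and from -0.600 to 0.602 in lean rats. Of 8 progenitor and stromal markers 4 were positive and 4 negative, and 1 passed, the collagen gene Col1a1 (0.82, limma adjusted p = 0.0305), whose other probe set did not (0.44, limma adjusted p = 0.173). Pdgfrb had a larger difference the other way that did not pass (-1.04, limma adjusted p = 0.15), and its other probe set had 0.35. With all 15 arrays none of the markers named here passed; with the Gapdh covariate over 13 arrays Gpnmb passed (limma adjusted p = 0.0457) and the other 4 macrophage markers (0.107 to 0.166), Calb2 (0.204) and Col1a1 (0.139) did not. No probe set was at 0 on any array, the lowest signal being 0.4, so the absence of 0 says nothing about whether a marker was detected. The part of these markers in the Mest and Frzb values was not tested, and in bulk tissue fewer cells of a type and less RNA per cell cannot be told apart.

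Within groups, the levels of 6 marker lists and the Gapdh 3′ to 5′ ratio were set against Mest and Frzb, 14 relations in each set of arrays. By permutation within groups none passed the adjustment. Here the 2 farthest rats were those farthest from the median in the group-centred level of the list, not in Mest or Frzb. Frzb and the macrophage list had a group-centred r of -0.71 over 13 arrays (permutation p = 0.0335, adjusted p = 0.166) and rho of -0.56 (permutation p = 0.0695, adjusted p = 0.195), and r was -0.46 without the 2 farthest rats. Frzb and the progenitor and stromal list had an r of -0.53 (permutation p = 0.0189, adjusted p = 0.166) and rho of -0.76 (permutation p = 0.00791, adjusted p = 0.111), and r was -0.57 without the 2 farthest rats. Mest and the smooth muscle list had an r of 0.59 (permutation p = 0.0356, adjusted p = 0.166) and rho of 0.69 (permutation p = 0.0185, adjusted p = 0.129), and r was 0.69 without the 2 farthest rats. Mest against the macrophage list gave r = -0.45 (permutation p = 0.195, adjusted p = 0.438).

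The Gapdh 3′ to 5′ ratio, a measure of RNA quality on these arrays, had a mean log2 value of 0.72 ± 0.28 in obese and 1.05 ± 0.28 in lean rats (SD, n = 6 and 7). Within groups the ratio went with Frzb at r = 0.47 (permutation p = 0.126, adjusted p = 0.427) and rho = 0.60 (permutation p = 0.0473, adjusted p = 0.195), and with Mest at r = 0.44 (permutation p = 0.153, adjusted p = 0.427) and rho = 0.43 (permutation p = 0.179, adjusted p = 0.314), over 13 arrays. With this ratio as a covariate the Mest difference was -0.94 ± 0.18 and that of Frzb 1375961_at was -1.01 ± 0.17 (SE, 13 arrays). With the covariate Mest and Frzb 1373615_at did not pass the threshold and Frzb 1375961_at did.

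The rest of the Wnt pathway was examined in 7 lists, from ligands to target genes, that held none of the members. Of 105 genes listed, 84 had a probe set and 61 passed the filter. By limma on the brightest probe set of each gene, 0 of 61 passed the adjusted p of 0.05 with 13 arrays or with 15. Of all 10514 genes read this way 1.1% passed with 13 arrays, and with 15 arrays 0 probe sets did. A count of 0 among 61 is near that share, so nothing is read from it. With 13 arrays 6 of the 61 had an unadjusted p under 0.05, not set against all genes, and the smallest adjusted p was 0.0952. Log2 differences ran from -0.51 to 0.79, 25 positive and 36 negative, with a median of -0.02, the same as that of all genes to 2 decimals. Sign counts here and in the other lists depend on the scaling. Median centring moved the median log2 difference of all probe sets over 13 arrays from -0.04 to 0.07, so nothing is read from these signs.

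On the scaling used here 0 of 5 ligands had a positive difference. Wnt9a averaged 943 ± 191 in obese and 1379 ± 314 in lean rats (SD, n = 6 and 7), a log2 difference of -0.51 ± 0.15 (limma adjusted p = 0.112), and 5 of 6 obese rats lay below all lean rats. Wnt2 had a difference of -0.38 ± 0.13 (limma adjusted p = 0.154). The genes of Wnt release, Porcn and Wls, which attach lipid to Wnt proteins and carry them to the surface, had differences of 0.23 and 0.01 (limma adjusted p = 0.502 and 0.972). Of the 10 receptor genes 5 were positive and 5 negative; the receptors Fzd8 and Lgr4 had differences of -0.26 and 0.24 (limma adjusted p = 0.316 and 0.318).

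Other secreted modulators stood near 0, with Dkk3 at -0.15 and Sostdc1 at 0.20 (limma adjusted p = 0.375 and 0.63). In the beta-catenin cascade, 8 of 19 genes were positive; the kinase Gsk3b had a difference of -0.27 (limma adjusted p = 0.26) and the feedback inhibitor Nkd1 0.51 (limma adjusted p = 0.266), with its other probe set at -0.26. Of 13 TCF factors and cofactors 9 were negative. Lef1, a factor of the same family as Tcf7l2, averaged 883 ± 129 in obese and 1242 ± 213 in lean rats (SD, n = 6 and 7), a difference of -0.45 ± 0.13 (limma adjusted p = 0.0952), and the cofactor Pygo2 had -0.20 (limma adjusted p = 0.38). Among 7 target genes, Myc had 0.52 (limma adjusted p = 0.291) and Jun -0.26 on its brightest probe set (limma adjusted p = 0.274). A dimmer Jun probe set, 1369788_s_at, passed as lower at -0.60 ± 0.12 (limma adjusted p = 0.033), as did 0.29% of all probe sets. With 15 arrays it did not pass (limma adjusted p = 0.103). The dimmest Jun probe set past the filter, 1374404_at, had -0.18 over 13 arrays (limma adjusted p = 0.524).

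**Figure D5:**
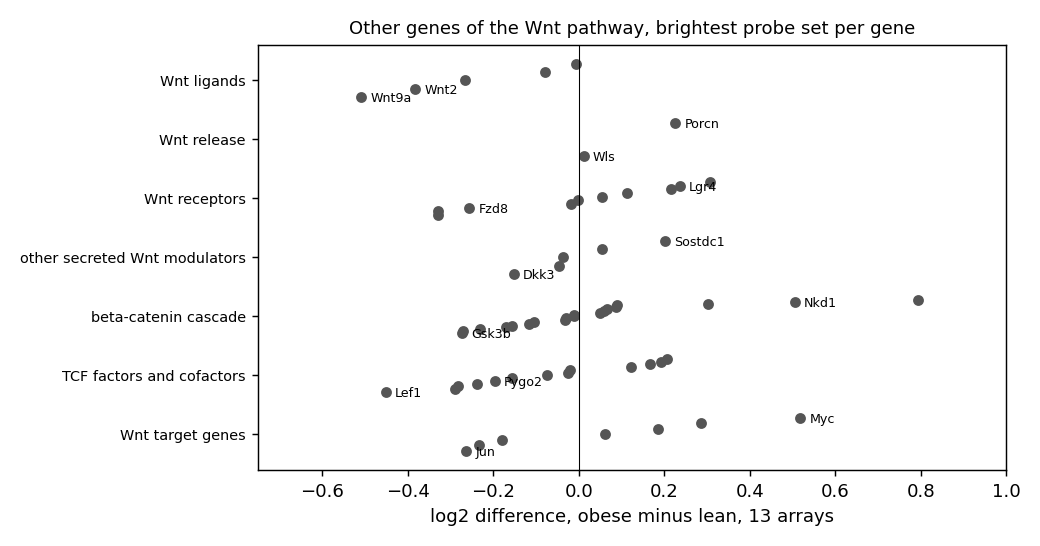
Log2 difference, obese minus lean, over 13 arrays for the 61 other Wnt pathway genes past the filter, 1 point per gene by its brightest probe set, with a row for each of the 7 lists and the 2 genes of smallest p named in each. The points spread on both sides of 0, from -0.51 to 0.79, and none passed the adjusted p of 0.05, beside 1.1% of all genes.

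Other imprinted genes and the neighbours of Mest on its chromosome were examined beside it. Of 11 imprinted genes past the filter 7 were negative and 0 passed, beside 1.1% of all genes by their brightest probe set. Nothing is read from so small a count. Plagl1, Snrpn and Sgce, each read from the paternal copy in mice, had differences of -0.43, -0.45 and -0.22 (limma adjusted p = 0.347, 0.357 and 0.385). In the RefSeq order the genes on either side of Mest are Cep41 and Copg2. Cep41 had a difference of -0.19 on its brightest probe set (limma adjusted p = 0.358) and 0.11 on its other (limma adjusted p = 0.775). Cpa4, 4 places away, had -0.35 (limma adjusted p = 0.314). Cpa1, a carboxypeptidase gene next to Cep41, rose without the pair. It averaged 8249 ± 3297 in obese and 2813 ± 1298 in lean rats (SD, n = 6 and 7), a log2 difference of 1.52 ± 0.31 (limma adjusted p = 0.0346), and 5 of 6 obese rats lay above all lean rats. With all 15 arrays the difference was 1.31 (limma adjusted p = 0.103), and with the Gapdh covariate the adjusted p of 13 arrays was 0.0647 in limma.

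Of 7 genes known in mice or rats to follow fat mass or fat cell size, 0 passed. Among all genes by their brightest probe set 1.1% passed, so nothing is read from this count. Lep, the hormone leptin, averaged 4476 ± 1189 in obese and 2569 ± 772 in lean rats (SD, n = 6 and 7), a log2 difference of 0.79 ± 0.19 (limma adjusted p = 0.0646). Bmp3, a secreted factor of the BMP family, averaged 1121 ± 261 in obese and 1655 ± 275 in lean rats (SD, n = 6 and 7), a difference of -0.54 ± 0.14 (limma adjusted p = 0.0787), and 5 of 6 obese rats lay below all lean rats. Cav2, a caveolin of the adipocyte membrane, had -0.26 on its brightest probe set (limma adjusted p = 0.269), and another of its probe sets had a positive difference.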

How the data were processed

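Total RNA of epididymal fat was hybridised to 1 Affymetrix array per rat; RNA input and extraction reagent are stated differently in the labels and in the design text. The authors deposited linear intensity values, which the submitters' processing notes name as MAS5 output; its version is not given in the sources used here. Signals ran from 0.4 to 511805 over 31099 probe sets, 57 of them controls; the number of arrays limits the precision. MAS5 subtracts mismatch signal, so low signals are noisy. Signals were put on log2(signal + 79.9), the 10th percentile, and probe sets with a mean above the 40th percentile were kept (18625 probe sets, 10514 genes). The comparison used lmFit and eBayes of limma 3.58.1 (R 4.3.3) with Benjamini-Hochberg adjustment over all probe sets and a threshold of 0.05, tested on simulated data. Each gene was read by its brightest probe set. Correlations used exact permutation over rats or, for group-centred values, 100000 permutations within groups. Gene names came from the platform annotation and promoters from RefSeq (GRCr8). The members and all gene lists were chosen with earlier results of these data known.

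Genes named were all members; from each Wnt list those past the threshold without the near-identical pair, or else the 2 of smallest p; from the imprinted, neighbouring and fat expansion lists the 3 of smallest p; and the 5 with the highest group-centred r with Mest and with Frzb. The dimmer Jun probe sets, the macrophage markers, Calb2, Col1a1 and Pdgfrb lie outside this rule and were chosen after their values were seen. The alternatives tried were other pseudocounts, filters and scalings, array weights, the rat number as a block, trended and robust eBayes, the Gapdh ratio, averaged probe sets per gene and each rat left out. Plots were made in Python 3.11.15 (matplotlib 3.10.9).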

Additional observations from a re-analysis of the deposited data

Results flagged for a closer look

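Each member probe set was examined within each group, with 13 and with 15 arrays, for a highest or lowest rat set apart from the rest by a wide gap. Over 68 such groups 11 held one, which are 7 different cases, since each group was examined with and without the near-identical array. The gap rule flags about 1 in 20 groups by chance for independent normal values; the groups here are not independent, so the number is not read against that rate. On Frzb probe set 1373615_at obese C1, at 4267.7, stood apart above the other obese rats, and without C1 obese C6, at 1204.5, stood apart below them. On Sfrp4 probe set 1368394_at obese C6, at 3869.4, stood apart above the other obese rats with and without C1. On the other Sfrp4 probe set, 1388021_at, lean A3, at 175.1, stood apart below the other lean rats with and without A7. For Sfrp5 lean A6, at 148.7, stood apart below the other lean rats with and without A7. For Wnt5a, below the filter, lean A6, at 350.8, stood apart below the other lean rats without A7. On Tcf7l2 probe set 1378048_at lean A4, at 193.3, stood apart below the other lean rats with and without A7. What set these rats apart was not tested.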

How the results depend on the processing

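With 15 arrays the count of probe sets past the threshold was 0, and it was 3 with no filter, 49 with the filter at the 60th percentile and 8 with trend and robust; leaving out 1 rat gave 0 to 245 (245 without obese C1 and 1 without lean A7). With 13 arrays it was 189 (135 higher and 54 lower in obese fat), and 123 with a pseudocount of 1, 46 with no filter, 334 with the filter at the 60th percentile, 389 with median centring (357 and 32), 124 with quantile normalization (89 and 35), 309 with trend and robust and 14 with the Gapdh covariate; leaving out 1 rat gave 51 to 262. Median centring moved the median log2 difference of all probe sets from -0.04 to 0.07. With the rat number as a replicate block the count was 3 with 13 arrays and 0 with 15. Same-numbered rats deviated from their group means with correlations from -0.11 to 0.24. Low correlations cannot decide whether the numbers pair the rats in the design. The cause of these shifts was not tested. Over 24 alternatives without the pair the log2 difference ran from -1.23 to -0.94 for Mest, from -1.25 to -1.01 for Frzb 1375961_at and from -1.02 to -0.76 for Frzb 1373615_at. The block ended all 3 calls, and the Gapdh covariate those of Mest and Frzb 1373615_at. These genes were chosen on this contrast, so the ranges are no support for it. The counts of 0 other Wnt genes and 0 correlated member pairs stayed at 0 under every alternative run. Several alternatives could hardly have raised these counts. With 13 arrays the block called 3 probe sets in all and the Gapdh covariate 14. In 6 obese rats a lone pair of members could not pass. Mest and Frzb in lean rats had r = 0.11 with 15 arrays; leaving out 1 lean rat gave -0.14 (without A2) to 0.33 (without A7).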
